A study of Homo sapiens with 27 samples.

Results

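Coagulation and fibrinolysis genes were followed in human endothelial cells exposed to young or senescent mesenchymal stromal cells. The 9 genes were SERPINB2, PLAT, PLAU, PLAUR, F3, TFPI, THBD, PROCR and VWF, each found by its symbol as 1 entry among the 60604 gene entries of the count table. All 9 passed the filter on low counts in every fit. RNA was sequenced from 27 libraries of EA.hy926, a hybrid line made from umbilical vein endothelial cells and the lung carcinoma line A549. Stromal cells were ASC52telo, an adipose mesenchymal line (MSC) kept dividing by telomerase.

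The 7 groups were as follows. In senescent ECM (ECM/MMC+) and young ECM (ECM/MMC-), endothelial cells were grown for 48 h on matrix left after the MSCs that made it had been removed. In senescent CM (CM/MMC+) and young CM (CM/MMC-), they received MSC-conditioned medium for 48 h, mixed 1:1 with their own. In senescent co-culture (MSC/MMC+) and young co-culture (MSC/MMC-), they shared a dish with MSCs for 48 h at a ratio of 1:1. Control cells had no exposure. MSCs were made senescent with the DNA-crosslinking agent mitomycin C (18 h at 1.5 µg/mL, then 10 days of culture without it), and young MSCs were untreated. Each group had 4 libraries, apart from senescent co-culture with 3. Replicate 1 is given apart, and every mean, fold change and test below uses replicates 2 to 4, 3 libraries per group, unless stated. The labels give EA.hy926 as the cell type, although the extraction protocol names MSCs as the source of RNA, and they do not say whether cells were separated after co-culture. The labels also do not say whether replicates were separate cultures, so the p-values describe spread among libraries that could be technical.

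A blood clot is a mesh of fibrin made by thrombin. Tissue factor, encoded by F3, starts the reactions that form thrombin when it meets plasma factor VII, and TFPI, the tissue factor pathway inhibitor, blocks that step. Endothelial cells hold clotting back with thrombomodulin (THBD), which binds thrombin and lets it activate protein C, and with the endothelial protein C receptor (PROCR), which presents protein C to that complex. Fibrin is dissolved by plasmin, which tissue-type plasminogen activator (PLAT) and urokinase (PLAU) release from plasminogen. PLAUR is the receptor that holds urokinase at the cell surface, and SERPINB2, also called plasminogen activator inhibitor type 2, inhibits urokinase and, more weakly, PLAT. Von Willebrand factor (VWF), stored in endothelial granules, tethers platelets.

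Promoter sequences are shown for the members searched whose upstream bases hold the letters of an AP-1 site. RefSeq promoter windows of build GRCh38.p14, 250 bases before to 50 after a gene's start, were used for 6 of the 9 members, PLAT not among them. The letters TGANTCA, the AP-1 motif, were searched for on both strands and lay in the windows of SERPINB2, PLAUR and F3, against 7.71% of 35116 promoter windows. They began at position -102 in SERPINB2, at -186 in PLAUR, and at -223 and -210 in F3, counted from the start. That start is the RefSeq one of the window. For SERPINB2, PLAUR and F3 it lies inside the gene span given below, not at its upstream end. SERPINB2 also held TATAAA at -30, letters found in 11.5% of windows. TGACGTCA, the CRE motif (1.85% of windows), was in none of the windows of these 6 members. CACCC, a Krüppel-like factor motif, was in F3 and PLAUR and in 59.9% of windows. TATAAA also lay on the minus strand in F3 and PROCR. Such matches describe letters only. The 250 bases before the start follow, 5′ to 3′ on the gene's own strand, with AP-1 letters in capitals.
SERPINB2 chr18:63887455-63887704 (+): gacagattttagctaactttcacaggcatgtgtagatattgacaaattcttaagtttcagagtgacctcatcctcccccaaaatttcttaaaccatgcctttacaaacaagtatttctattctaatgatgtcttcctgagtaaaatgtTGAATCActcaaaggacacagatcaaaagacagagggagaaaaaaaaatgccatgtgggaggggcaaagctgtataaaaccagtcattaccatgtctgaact
PLAUR chr19:43670170-43670419 (-): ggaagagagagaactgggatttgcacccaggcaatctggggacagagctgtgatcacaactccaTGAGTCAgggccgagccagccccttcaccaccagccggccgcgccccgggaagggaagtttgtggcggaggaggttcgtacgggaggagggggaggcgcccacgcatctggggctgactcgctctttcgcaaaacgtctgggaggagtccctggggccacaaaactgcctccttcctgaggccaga
F3 chr1:94541760-94542009 (-): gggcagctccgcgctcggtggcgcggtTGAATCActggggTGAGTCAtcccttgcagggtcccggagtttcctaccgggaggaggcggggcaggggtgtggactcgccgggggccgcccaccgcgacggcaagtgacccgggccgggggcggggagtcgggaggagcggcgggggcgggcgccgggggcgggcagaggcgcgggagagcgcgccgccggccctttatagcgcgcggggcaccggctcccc

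Some libraries stood apart. In replicate 1 of control, both ECM groups and both CM groups, COL1A1, a collagen of stromal cells, was at 1887 to 5262 CPM (counts divided by library size, with TMM adjustment between libraries), and TERT, carried by the MSC line, was at 633 to 1274 CPM. In replicates 2 to 4 of these groups COL1A1 did not exceed 10.3 CPM. The 15 stromal markers made up 0.633 to 1.13% of counts in those 5 libraries. They made up 0.0739 to 0.0808% in senescent co-culture, 0.048 to 0.0779% in young co-culture and 0.0186 to 0.0424% in the other 5 groups, all in replicates 2 to 4. Of 16 endothelial markers, CLDN5 and EMCN had 0 counts in 20 and 13 libraries and at most 2 and 6 counts elsewhere, while the others, among them PECAM1, CDH5 and NOS3, were detected in every library. The endothelial list took 0.72 to 0.764% of counts in senescent co-culture and 0.608 to 0.743% in young co-culture, against 0.302 to 0.446% in control, in replicates 2 to 4. In the same replicates it took 0.396 to 0.539% in senescent ECM, 0.363 to 0.56% in young ECM, 0.49 to 0.574% in senescent CM and 0.343 to 0.42% in young CM. Replicate 1 of young co-culture, at 0.323%, lay within the control range. Its stromal share, 0.0063%, was below that of every other library, although it is labelled as a co-culture. Its TMM factor was 0.459, against 0.95 to 1.08 in the other libraries. The 6 epithelial markers, whose counts came almost wholly from the keratins KRT7, KRT8 and KRT18, took 0.119 to 0.124% of counts in senescent ECM, 0.107 to 0.128% in young ECM, 0.429 to 0.551% in senescent CM, 0.35 to 0.443% in young CM, 0.338 to 0.388% in senescent co-culture and 0.415 to 0.475% in young co-culture, against 0.21 to 0.254% in control, and 0.8294% in replicate 1 of young co-culture. This list was thus lower in every matrix library, and higher in every medium and co-culture library, than in any control library of replicates 2 to 4, and its part in the results was not tested. With all replicates in the fits no member was called against control, and SERPINB2 in senescent ECM against senescent CM was the only member called in any of the 14 comparisons.

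SERPINB2 (ENSG00000197632.9, GRCh38 chr18:63871692-63903890, plus strand) moved most. Its group means spanned 34.0-fold, against 5.33-fold for THBD and 1.22-fold for PROCR. Endothelial cells on MSC matrix had more of this inhibitor transcript than control cells, and cells given senescent medium or kept with MSCs had less. In senescent ECM its levels were 286, 407 and 427 CPM in replicates 2, 3 and 4, and in young ECM 307, 393 and 350.5 CPM, against 68.8, 99.8 and 87.8 CPM in control. Every matrix library exceeded every control library. The log2 fold change was 2.13 ± 0.24 (SE; edgeR adjusted p = 0.00124) for senescent ECM against control and 2.04 ± 0.24 (adjusted p = 0.000864) for young ECM against control. Of the 9 members SERPINB2 alone passed in each of these comparisons. In senescent ECM 0.3% of 18015 genes passed and 0.222% were higher, and in young ECM 0.649% passed and 0.461% were higher.

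With senescent CM, SERPINB2 was at 18.9, 22.6 and 11.2 CPM, and with young CM at 37.0, 43.9 and 35.4 CPM. All 6 libraries lay below control, and no senescent CM library reached the lowest young one. SERPINB2 fell in senescent CM against control, with a log2 fold change of -2.27 ± 0.24 and an adjusted p of 0.000469, the only member called, where 0.505% of genes passed and 0.2% were lower. For young CM against control the change was -1.11 ± 0.23 (adjusted p = 0.239), and DESeq2 gave an adjusted p of 0.00666. No gene at all passed edgeR's test in that comparison (0%), where 846 genes, 3 of them members, had an unadjusted p under 0.05 and DESeq2 called 33 genes.

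Co-culture gave the lowest levels, 11, 10.2 and 11.7 CPM with senescent MSCs and 10.6, 14.3 and 15.4 CPM with young MSCs. SERPINB2 fell by 2.95 on the log2 scale in senescent co-culture against control (SE 0.19, adjusted p = 8.12e-06) and by 2.66 in young co-culture against control (SE 0.19, adjusted p = 1.42e-05). In a mixed culture, fewer cells of a type and less RNA per cell cannot be told apart. In replicates 2 to 4 the endothelial list took a larger share of counts in every co-culture library than in any control library. Leaving out any 1 library of replicates 2 to 4 changed none of the SERPINB2 calls in these 5 comparisons against control. Adding replicate 1 kept all 5 directions and ended all 5 calls, with log2 fold changes of 2.06 (adjusted p = 0.718) in senescent ECM, 1.96 (0.756) in young ECM, -1.92 (0.669) in senescent CM, -2.72 (0.126) in senescent co-culture and -1.77 (0.198) in young co-culture. Senescent co-culture has no replicate 1, so its fit gained only replicate 1 of control and of young co-culture. Scaling on the endothelial marker list, which takes the sum of that list as constant, left the direction and ended both matrix calls. The log2 fold changes were 1.76 (adjusted p = 0.0654) in senescent ECM and 1.65 (adjusted p = 0.0528) in young ECM.

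**Figure D1:**
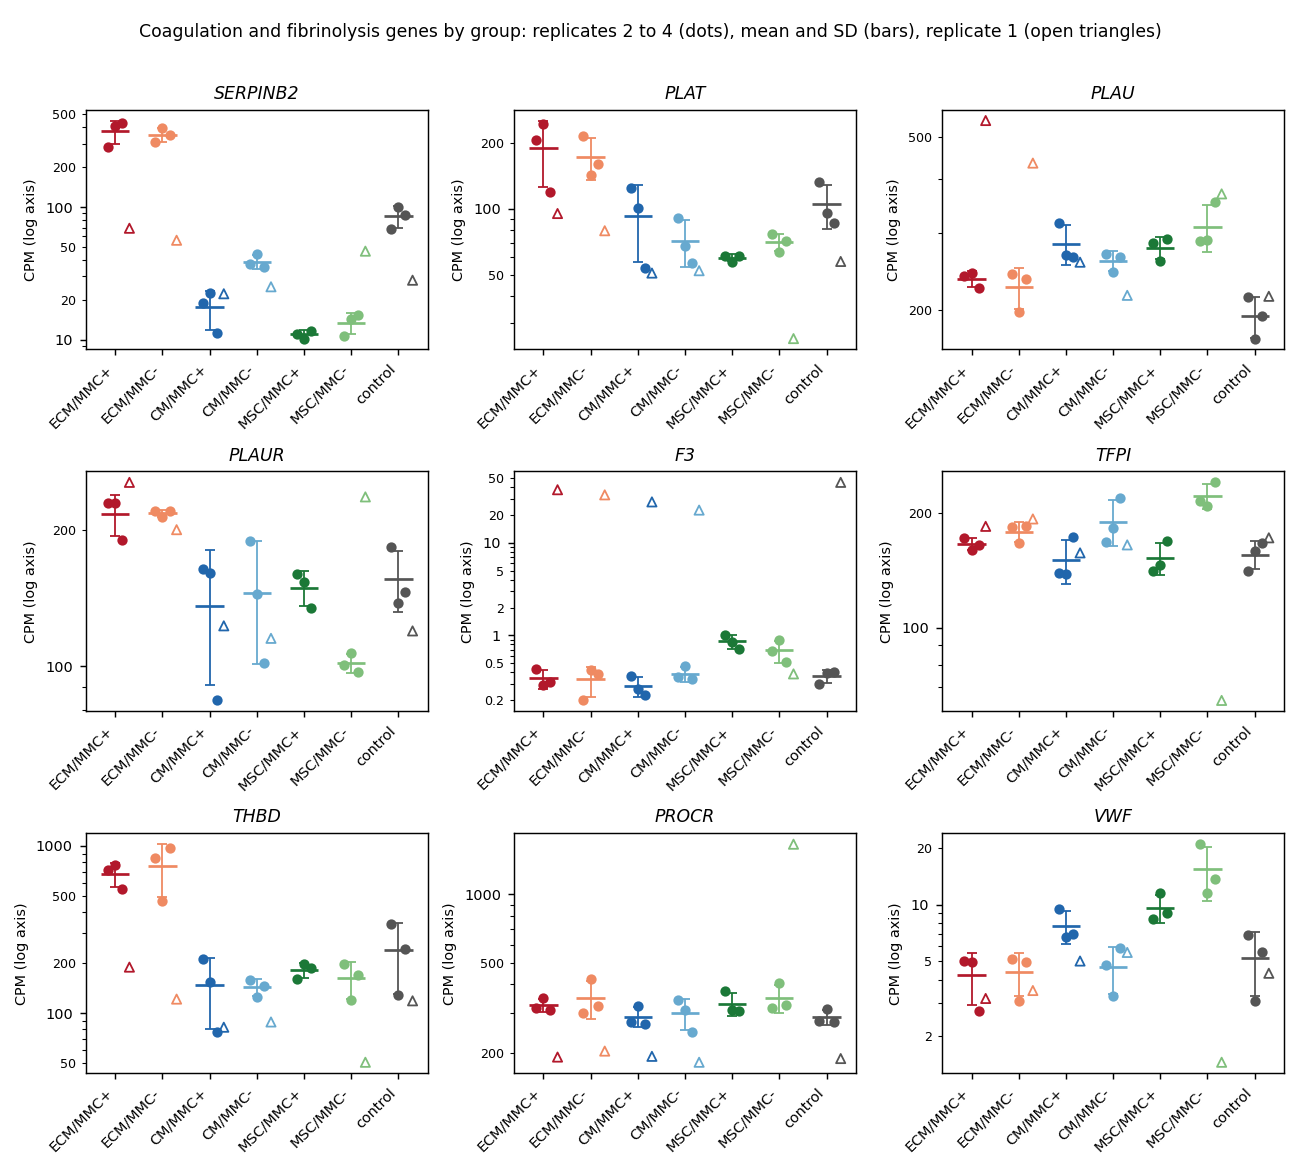
Level of each of the 9 genes in CPM on a log axis, by group, with replicates 2 to 4 as dots, their mean and SD as bars, and replicate 1 as open triangles. SERPINB2 and THBD are highest in the ECM groups, with means of 373 and 679 CPM in senescent ECM against 85.5 and 237 CPM in control, and F3 lies at 1.02 CPM or less except in the triangles of 5 groups.

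Between matrix and medium SERPINB2 had the smallest p of all genes. The log2 difference was 4.40 ± 0.27 for senescent ECM against senescent CM (adjusted p = 4.68e-07) and 3.15 ± 0.25 for young ECM against young CM (adjusted p = 1.49e-05). Per kilobase of exon, SERPINB2 ran at 1.28 to 2.05 times PLAU in senescent ECM and 1.36 to 2.14 times in young ECM, and so exceeded the transcript of urokinase, its target protease. This ratio was 0.0456 to 0.0906 in senescent CM, 0.144 to 0.193 in young CM, 0.0416 to 0.0431 in senescent co-culture, 0.0397 to 0.0533 in young co-culture and 0.345 to 0.624 in control. In replicate 1 it was 0.136 in senescent ECM and 0.138 in young ECM, against 0.14 in control, so there it was no higher on matrix. By annotation SERPINB2 shares 19.9% of its exon bases with SERPINB10 on the same strand, which stood at 0.593 CPM or less in replicates 2 to 4.

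PLAT (ENSG00000104368.19, on chromosome 8) also had its highest means on matrix and its lowest in co-culture, with smaller steps. Its levels were 206, 242 and 119 CPM in senescent ECM, 216, 143 and 160.4 CPM in young ECM, 124, 101 and 53.6 CPM in senescent CM, 90.5, 67.3 and 56.5 CPM in young CM, and 132, 95.4 and 86.2 CPM in control. Only young ECM lay wholly above control among these groups, and neither matrix group passed the test against control (log2 fold change 0.85 ± 0.31, adjusted p = 0.467 in senescent ECM, and 0.72 ± 0.31, adjusted p = 0.515 in young ECM). Young ECM was higher than young CM by 1.25 ± 0.31 (adjusted p = 0.0386), a call that 5 of 6 leave-one-out fits ended, those without young ECM replicate 2 or 4 or any young CM library. Senescent ECM against senescent CM gave 1.01 ± 0.31 (adjusted p = 0.0781), and 1.04 with an adjusted p of 0.00355 when same-numbered libraries, which deviated together here, were blocked. With MSCs in the dish PLAT was lower, at 60.9, 57.3 and 61.0 CPM beside senescent MSCs and 76.4, 63.6 and 71.4 CPM beside young ones. PLAT fell by 0.80 in senescent co-culture against control (SE 0.16, adjusted p = 0.0108; 0.0557 without senescent co-culture replicate 3). For young co-culture the change was -0.56 ± 0.16 (adjusted p = 0.0533), and -0.55 with an adjusted p of 0.0349 when blocked.

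Urokinase was higher in co-culture. PLAU (ENSG00000122861.16, chr10:73909177-73917497, plus strand) stood at 285, 259 and 291 CPM in senescent co-culture and at 288, 289 and 354 CPM in young co-culture, against 214, 172 and 194 CPM in control. Its libraries in co-culture did not overlap with control. The log2 fold change was 0.54 ± 0.14 (adjusted p = 0.0381) with senescent MSCs and 0.69 ± 0.14 (adjusted p = 0.0106) with young MSCs, and both turned negative under scaling on the endothelial list, to -0.40 (adjusted p = 0.0366) and -0.13. The call with senescent MSCs was lost in 5 of 6 leave-one-out fits, all but the one without control replicate 2, and that with young MSCs without control replicate 4 (adjusted p = 0.0533) or young co-culture replicate 4 (adjusted p = 0.061). Group means were 283 ± 30.0 CPM in senescent CM, 259.5 ± 13.2 CPM in young CM, 236 ± 9.87 CPM in senescent ECM and 225 ± 24.4 CPM in young ECM, against 193 ± 21.2 CPM in control (SD, n = 3 each), and none of these 4 groups passed. For senescent CM the adjusted p was 0.105 with edgeR, 0.0062 with DESeq2. An antisense gene, C10orf55, shares 31.1% of the exon bases of PLAU; since the strand setting of the counting is not given in the sources used here, reads of the pair may be mixed.

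The urokinase receptor gene PLAUR (ENSG00000011422.12, chr19:43646095-43670547, minus strand) had 231, 230.1 and 191 CPM in senescent ECM and 221, 214 and 221 CPM in young ECM, against 184, 138 and 146 CPM in control. All 6 matrix libraries exceeded all control libraries, yet the tests gave 0.47 ± 0.24 (adjusted p = 0.823) for senescent ECM and 0.48 ± 0.24 (adjusted p = 0.65) for young ECM. In medium PLAUR spread widely, from 83.9 to 164 CPM in senescent CM and from 102 to 189 CPM in young CM. Senescent ECM against senescent CM gave 0.66 ± 0.25 (adjusted p = 0.167), and 0.70 with an adjusted p of 0.0333 when same-numbered libraries were blocked. Co-culture divided by the state of the MSCs, with 159.8, 154 and 134 CPM beside senescent MSCs and 101, 107 and 97 CPM beside young MSCs. PLAUR fell by 0.61 in young co-culture against control (SE 0.14, adjusted p = 0.0211; 0.0679 without young co-culture replicate 2 and 0.0963 without its replicate 4). Senescent against young co-culture gave 0.56 ± 0.14 without overlap between libraries, but with an adjusted p of 0.242.

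Among the regulators of thrombin, F3 (ENSG00000117525.14, chr1:94529225-94541800, minus strand) was barely expressed in EA.hy926. In control it had 0.298, 0.391 and 0.404 CPM, which is 33 to 38 counts in a library. The ECM and CM groups ranged from 0.199 to 0.47 CPM, and no test against control passed there. In senescent co-culture it had 1.02, 0.848 and 0.717 CPM and in young co-culture 0.681, 0.889 and 0.515 CPM, all above control. F3 rose by 1.26 ± 0.27 in senescent co-culture against control (adjusted p = 0.0129) and by 0.94 ± 0.27 in young co-culture against control (adjusted p = 0.0464). The first call was lost without senescent co-culture replicate 2 or 3 (adjusted p = 0.0748 and 0.0531), and the second in 5 of 6 leave-one-out fits, all but the one without young co-culture replicate 4.

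COL1A1 and TERT were higher in both co-cultures than in control, as F3 was. COL1A1 ranged over 118 to 169 CPM with senescent MSCs and 47.3 to 71.7 CPM with young MSCs, against 5.50 to 6.18 CPM in control. TERT was at 3.00 to 4.50 CPM with senescent and 5.94 to 7.97 CPM with young MSCs, against 1.52 to 1.87 CPM in control. Between the co-cultures TERT thus had the reverse order to COL1A1. In the 5 replicate 1 libraries rich in COL1A1, F3 was at 37.6 CPM in senescent ECM, 33.1 in young ECM, 27.8 in senescent CM, 22.6 in young CM and 45.1 in control, far above any other library. Per 1000 CPM of COL1A1 these libraries held 5.00 to 17.5 CPM of F3. That range covers the 6.06 to 6.36 CPM of senescent co-culture and the 9.51 to 14.5 CPM of young co-culture. In control, ECM and CM, replicates 2 to 4, this ratio was 25.6 to 76.6 CPM, and F3 present without MSCs was not subtracted. The match was particular to COL1A1. Per CPM of TERT, F3 was higher in every co-culture library of replicates 2 to 4 than in those 5 libraries. The part of MSC transcripts in the F3 difference was not tested.

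**Figure D2:**
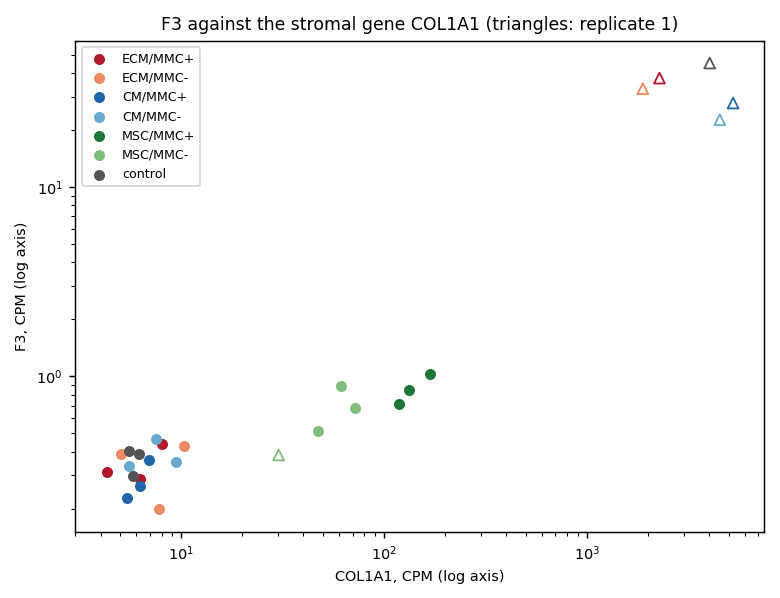
F3 against the stromal collagen gene COL1A1 in all 27 libraries, both in CPM on log axes, coloured by group, with replicate 1 as open triangles. The 5 libraries with 1887 CPM or more of COL1A1 hold 22.6 to 45.1 CPM of F3, the co-culture libraries lie between them and the rest, and replicate 1 of young co-culture, with 30.2 CPM of COL1A1, has 0.385 CPM of F3.

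TFPI (ENSG00000003436.16, chr2:187464230-187565760, minus strand), the inhibitor of the tissue factor complex, kept within 1.47-fold over the groups. In senescent co-culture it was at 141, 147 and 169.7 CPM and in young co-culture at 215, 209 and 241 CPM, against 141, 159 and 167 CPM in control. Young co-culture lay above both of the others without overlap. TFPI rose by 0.52 ± 0.13 in young co-culture against control (adjusted p = 0.0304), a value that turned to -0.33 under scaling on the endothelial list. The call was lost in 4 of 6 leave-one-out fits, those without control replicate 4 or any 1 of the young co-culture libraries (highest adjusted p = 0.138). For senescent against young co-culture the change was -0.54 ± 0.13 (adjusted p = 0.198 with edgeR, 0.0136 with DESeq2). In the medium groups TFPI was also lower with senescent than with young MSCs, 151 ± 19.8 against 190.1 ± 26.3 CPM (SD, n = 3 each), but the libraries overlapped and the adjusted p was 0.765.

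Thrombomodulin, the thrombin receptor, was the second gene to separate matrix from medium. THBD (ENSG00000178726.7, chr20:23045633-23049741, minus strand, 1 exon) had 716, 772 and 549.8 CPM in senescent ECM and 844, 466 and 971 CPM in young ECM. In senescent CM it had 210.3, 154 and 76.8 CPM and in young CM 158, 124 and 146 CPM. Control libraries, at 342, 128 and 241 CPM, lay below every matrix library and overlapped with both CM groups. THBD was higher in senescent ECM than in senescent CM by 2.20 ± 0.38 (adjusted p = 0.0025) and in young ECM than in young CM by 2.39 ± 0.38 (adjusted p = 0.00233), and all 12 leave-one-out fits kept these calls. With all replicates both were lost, at 2.09 (adjusted p = 0.107) and 2.22 (adjusted p = 0.162). In these 2 comparisons 4.9% and 3.35% of 18015 genes passed, and of the 9 members 2 and 3 passed, each of them higher on matrix, as were 2.75% and 2.15% of all genes.

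Against control the THBD differences were 1.51 ± 0.37 in senescent ECM (adjusted p = 0.12) and 1.67 ± 0.37 in young ECM (adjusted p = 0.0557), past no threshold. For young ECM same-numbered libraries deviated together, and blocking them gave 1.72 with an adjusted p of 0.0132. DESeq2 called both, with adjusted p = 0.00526 and 0.000685. In co-culture THBD was at 159 to 196 CPM with senescent MSCs and 119 to 198 CPM with young MSCs, inside the control range but for the young library at 119 CPM, and it passed no test. THBD was lowest in the library with the smallest share of endothelial markers in control, both ECM groups, both CM groups and both co-culture groups, and in 6 of the 7 groups the whole order of the libraries was alike for both. The part of the endothelial share in the THBD differences was not tested. With endothelial scaling senescent ECM against control gave 1.23 (adjusted p = 0.104) and young ECM against control 1.33 (adjusted p = 0.0483).

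**Figure D3:**
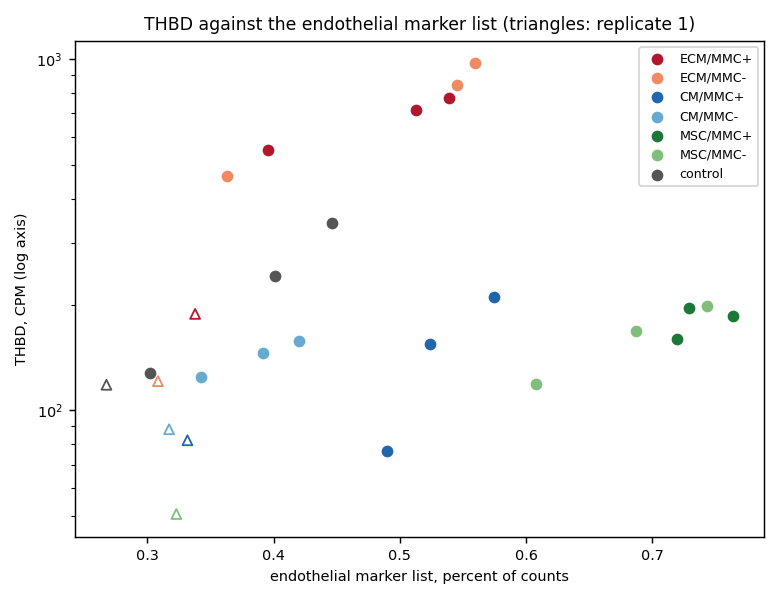
THBD level in CPM on a log axis against the share of counts taken by the 16 endothelial marker genes, in percent, for all 27 libraries by group, with replicate 1 as open triangles. The ECM libraries of replicates 2 to 4, at 466 to 971 CPM, lie above all others, and within most groups THBD is higher where the endothelial share is higher.

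The protein C receptor gene PROCR (ENSG00000101000.6, chr20:35172073-35216240, plus strand) was the steadiest member and the only one called in none of the 14 comparisons. Group means lay between 349 ± 50.2 CPM in young co-culture and 286 ± 21.5 CPM in control (SD, n = 3 each). Per kilobase of exon it was also the most abundant member in control, at 169 CPM per kb, followed by PLAU at 65.5, THBD at 57.7, PLAUR at 35.0, SERPINB2 at 31.1, PLAT at 15.8, TFPI at 13.3, VWF at 0.50 and F3 at 0.127. On matrix SERPINB2 and THBD reached 136 and 165 CPM per kb in senescent ECM and 128 and 185 CPM per kb in young ECM, below the 191 and 205 CPM per kb of PROCR there. An antisense transcript shares 12.9% of the exon bases of PROCR.

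VWF (ENSG00000110799.14, chr12:5948874-6124770, minus strand), the platelet tether, was low throughout this line. It had 8.38, 11.5 and 9.03 CPM in senescent co-culture and 21.0, 11.6 and 13.7 CPM in young co-culture, against 6.91, 3.09 and 5.59 CPM in control. Both co-culture groups lay above control, and young above senescent. VWF rose by 1.57 ± 0.30 in young co-culture against control (adjusted p = 0.00656), and kept its call in all 6 leave-one-out fits but not with all replicates (1.22, adjusted p = 0.42). For senescent co-culture against control the value was 0.90 ± 0.29 (adjusted p = 0.0902 with edgeR, 0.0336 with DESeq2). Scaling on the endothelial list left 0.02 (adjusted p = 0.934) with senescent MSCs and 0.79 (adjusted p = 0.0121) with young MSCs. In senescent CM it was at 6.76 to 9.48 CPM, above the 3.29 to 5.92 CPM of young CM, with a log2 difference of 0.72 ± 0.32 (adjusted p = 0.765). Means on matrix were 4.23 ± 1.31 CPM in senescent ECM and 4.41 ± 1.14 CPM in young ECM (SD, n = 3 each), near the control mean of 5.20 ± 1.94 CPM. The pseudogene VWFP1, which could share reads with VWF, had at most 0.0524 CPM.

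Across the 9 genes, 4 passed in senescent co-culture against control (PLAU and F3 higher, SERPINB2 and PLAT lower), where 8.05% of 17729 genes passed, 5.82% higher and 2.23% lower. In young co-culture against control 6 passed (PLAU, F3, TFPI and VWF higher, SERPINB2 and PLAUR lower), where 9.68% of genes passed, 6.71% higher and 2.97% lower. These splits depend on the scaling. Scaling on the endothelial list moved the median of all genes to -0.94 in senescent and to -0.82 in young co-culture on the log2 scale, against 0.02 and 0.01 with TMM, and called 343 genes higher and 13348 lower with senescent MSCs and 320 higher and 11568 lower with young MSCs. Of the members it called 0 higher and 7 lower with senescent MSCs, and 1 higher (VWF) and 4 lower with young MSCs. PLAU at -0.40 and -0.13, and TFPI at -0.33 in young co-culture, stayed above those medians. F3 was at 0.30 (adjusted p = 0.427) and 0.12 (adjusted p = 0.766), so both of its calls ended. SERPINB2 and PLAT stayed lower in both co-cultures, and VWF higher in young co-culture, under every scaling tried.

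**Figure D4:**
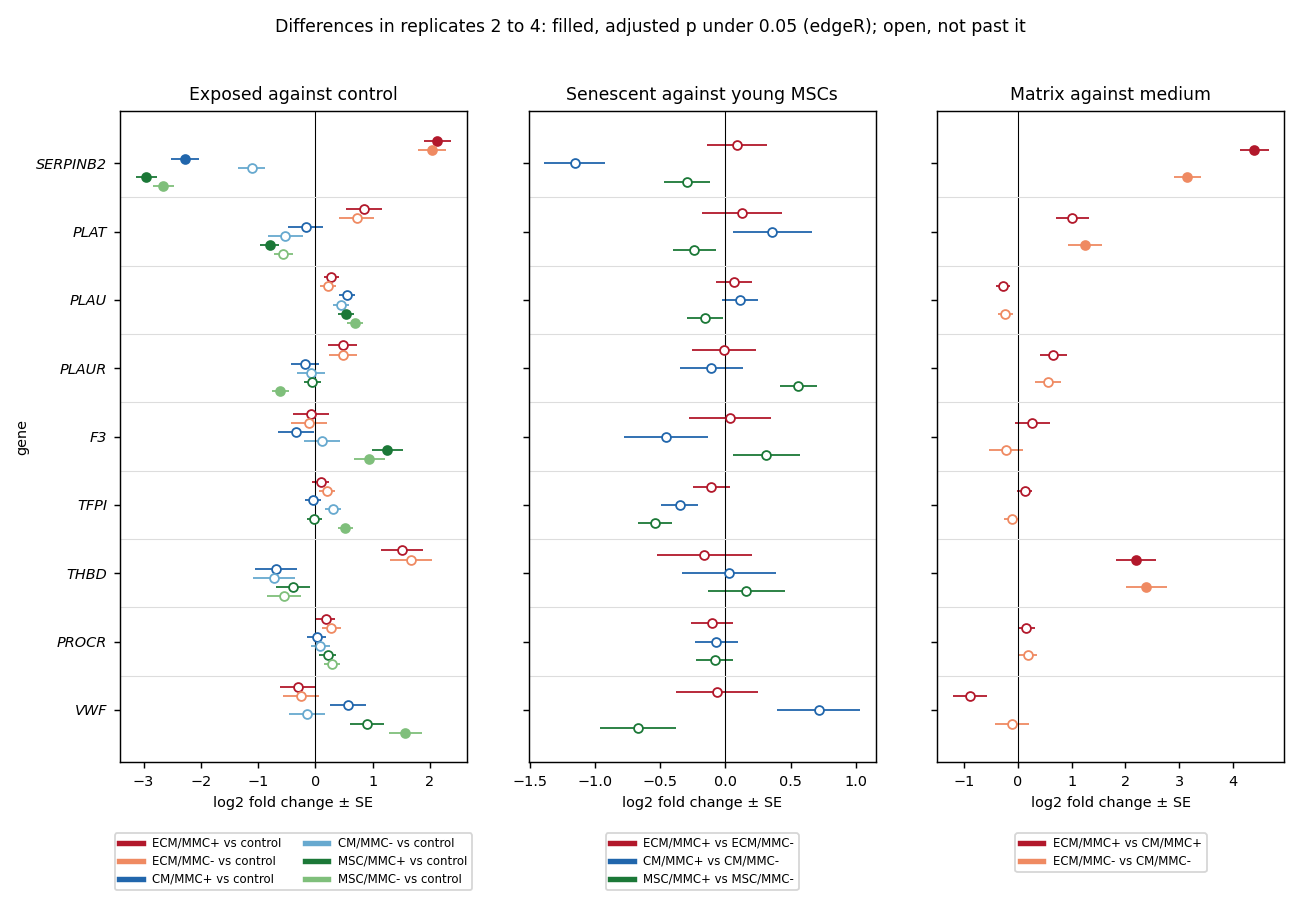
Log2 fold change ± SE of the 9 genes in replicates 2 to 4, for exposed against control cells, for senescent against young MSCs, and for matrix against medium, with filled points past an adjusted p of 0.05. SERPINB2 runs from -2.95 in senescent co-culture to 2.13 in senescent ECM against control, no point is filled in the panel of senescent against young MSCs, and SERPINB2 and THBD are filled in both comparisons of matrix with medium.

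No member passed edgeR's test between exposure to senescent and to young MSCs by any of the 3 modes. The share of all genes that passed was 0% for senescent against young ECM (141 genes, none of them members, at an unadjusted p under 0.05, and 0 genes by DESeq2), 0.0167% for CM and 0.395% for co-culture. Unadjusted p was under 0.05 for 3 members in CM, beside 975 of 18015 genes, and for 3 in co-culture, beside 992 of 17729 genes. SERPINB2 was nearest in CM, at 17.6 ± 5.79 CPM with senescent against 38.8 ± 4.48 CPM with young medium (SD, n = 3 each), a log2 change of -1.16 ± 0.23 (adjusted p = 0.273 with edgeR, 0.0063 with DESeq2) and rank 10 of all genes by p. Tests of the difference between these senescence effects called no member (CM minus ECM, -1.22 ± 0.31 for SERPINB2, adjusted p = 0.899). In them 0.00541%, 0.0487% and 0.103% of 18492 genes passed for CM minus ECM, co-culture minus ECM and co-culture minus CM. In the same order 1, 1 and 3 members had an unadjusted p under 0.05, beside 512, 542 and 1018 genes in these tests. DESeq2 called no member in them either.

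Replicate 1, set against its own control library, repeated part of this. SERPINB2 was at 69.2 CPM in senescent ECM and 56.2 CPM in young ECM, against 28.0 CPM in control, 2.47 and 2.00 times as much. It was at 22.2 CPM in senescent CM and 25.0 CPM in young CM, 0.790 and 0.892 times the control. THBD was at 188 CPM in senescent ECM, 121 CPM in young ECM, 82.2 CPM in senescent CM and 88.4 CPM in young CM, against 118 CPM in control. PLAU, by contrast, was at 546 CPM in senescent ECM and 436 CPM in young ECM, against 215 CPM in control, a larger step than in replicates 2 to 4. Replicate 1 of young co-culture had the outlying TMM factor of 0.459. Scaled by it, against replicate 1 of control, 5 of the 6 members called there went the other way from replicates 2 to 4. SERPINB2, at 46.5 CPM, was at 1.66 times control and PLAUR, at 237 CPM, at 1.98 times, while VWF, at 1.46 CPM, was at 0.337 times, TFPI at 0.374 times and F3 at 0.00852 times. PLAU alone of the 6 kept its direction with TMM, at 1.72 times. PROCR was at 1664 CPM, 8.83 times control. Without TMM this library had 21.3 CPM of SERPINB2, 109 of PLAUR and 170 of PLAU, against 28.6, 122 and 219 CPM in control. SERPINB2 and PLAUR then kept the direction of replicates 2 to 4 and PLAU did not, so these directions depended on the scaling. VWF, TFPI and F3 stayed below control without TMM, and PROCR stood at 764 against 192 CPM. With only 1 library per group these are values without a test.

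Other genes of clotting and fibrinolysis were followed as a list of 52, of which 29 were expressed enough to test. In co-culture many of them were higher: 10 of 29 rose and none fell with senescent MSCs against control, and 10 rose and 1 fell with young MSCs. Over all genes 5.82% were higher and 2.23% lower with senescent MSCs, and 6.71% and 2.97% with young MSCs. The list's median log2 fold change was 0.51 with senescent and 0.53 with young MSCs, beside 0.02 and 0.01 over all genes. The rise depends on the scaling: on the endothelial list 3 of 29 were higher and 12 lower with senescent MSCs, and 5 higher and 11 lower with young MSCs, with list medians of -0.42 and -0.22. With all replicates none of the 29 passed in either co-culture against control. Senescent co-culture has no replicate 1, so that fit gained only replicate 1 of control, rich in COL1A1, and of young co-culture. The genes named here have the smallest adjusted p, up to 4 a comparison, and kept their sign under that scaling, though not all kept their call. SERPINE2, a cell-surface inhibitor of thrombin and urokinase, was at 53.0 ± 9.82 CPM in senescent co-culture against 16.5 ± 1.58 CPM in control (SD, n = 3 each; log2 fold change 1.70 ± 0.16, adjusted p = 6.15e-05). SELP, the platelet adhesion receptor P-selectin stored beside VWF, rose by 1.80 ± 0.21 with senescent MSCs (adjusted p = 0.000247) and by 2.29 ± 0.21 with young MSCs (adjusted p = 0.000103). F2RL3, a thrombin receptor, rose by 2.07 ± 0.27 and 2.79 ± 0.27 in senescent and young co-culture against control, to 1.64 and 2.71 CPM against 0.391 CPM. F2RL1, a receptor cut by other proteases, rose by 1.14 ± 0.14 with senescent MSCs, which endothelial scaling lowered to 0.16 (adjusted p = 0.524). With young MSCs the remaining pair were MMRN1, a factor V binding protein, at 2.30 ± 0.28 and F2R, the main thrombin receptor, at 1.08 ± 0.15, the last of which endothelial scaling lowered to 0.25 (adjusted p = 0.179). The gene that fell with young MSCs was SERPIND1, heparin cofactor II, at -0.85 ± 0.18 (adjusted p = 0.0122). With all replicates it turned to 0.62 (adjusted p = 0.669), and SERPINE2 with senescent MSCs dropped to 0.12 (adjusted p = 1).

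On matrix and in medium few of the list passed, and under endothelial scaling none of the 29 did in any ECM or CM group against control. With all replicates none of the 30 then tested did either. None of the 29 passed in senescent ECM against control, nor in young CM against control. In young ECM SERPIND1 rose by 1.49 ± 0.27 (adjusted p = 0.0201) and MMRN1 fell by 1.33 (SE 0.28, adjusted p = 0.0448). In senescent CM F2RL1 rose by 0.77 ± 0.15 (adjusted p = 0.0283) and F2RL3 by 1.32 ± 0.28 (adjusted p = 0.0448). Senescent ECM against senescent CM, where 4.9% of all genes passed and 2.75% were higher, had 2 higher and 6 lower, led by F2RL1 at -1.27 ± 0.15, F2RL3 at -2.34 ± 0.30, MMRN1 at -1.64 ± 0.28 and SERPINE2 at -0.75 ± 0.15, while young ECM against young CM, where 3.35% passed and 2.15% were higher, had SERPIND1 higher by 1.46 ± 0.27 and MMRN1 lower by 1.34 (SE 0.28). Endothelial scaling left 1 higher and 3 lower with senescent MSCs, ending the MMRN1 (adjusted p = 0.055) and SERPINE2 (0.115) calls, and ended both with young MSCs (SERPIND1 0.109, MMRN1 0.0573). With all replicates 1 of the list passed between senescent ECM and senescent CM, SERPIND1 at 1.33 (adjusted p = 0.0456), and none between young ECM and young CM. Between senescent and young co-culture SERPINE2 alone of the list passed, at 0.98 ± 0.16 (adjusted p = 0.0227). Its call was lost under endothelial scaling (0.86, adjusted p = 0.213) and with all replicates (0.96, adjusted p = 0.902). In young co-culture against control SERPINE2 turned from 0.72 to -0.84 with all replicates. COL1A1 was also higher in senescent than in young co-culture, at 118 to 169 against 47.3 to 71.7 CPM. The part of MSC transcripts in the SERPINE2 differences was not tested. F2RL3 was the 1 gene of the list whose senescence effect differed between modes, by -1.99 ± 0.36 for co-culture minus CM (adjusted p = 0.0298), a call lost with all replicates (-1.73, adjusted p = 0.9999).

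The genes most like SERPINB2 in pattern over the 7 group means were WNT16, a Wnt ligand, and STC1, the secreted glycoprotein stanniocalcin, with root mean square differences of 0.62 and 0.84 on the centred log2 scale among 9936 genes. WNT16 was at 10.5 ± 0.93 CPM in senescent ECM against 2.54 ± 0.918 CPM in control, and STC1 at 368 ± 93.1 against 123 ± 16.4 CPM (SD, n = 3 each). For THBD they were CCN3, a secreted matrix-associated protein, at 0.10 and LYPD5 at 0.14. CCN3 was at 19.7 ± 3.81 CPM in senescent ECM against 5.27 ± 0.619 CPM in control. For the members with narrower ranges the nearest genes were FMN2 and SERTAD2 for PLAT, CREB3L2 and SWT1 for PLAU, LAT2 and MLKL for PLAUR, LOXL1 and CIRBP for F3, KYAT3 and ZNF277 for TFPI, PPP1R21 and KRBOX4 for PROCR, and PPP1R16B and ENSG00000188897 for VWF. The differences for these lay between 0.03 and 0.13. For F3 the pseudocount of 0.5 CPM exceeded every level outside co-culture in replicates 2 to 4. It narrowed the log2 range of F3 to 0.80, although its mean CPM spanned 3.04-fold, so its nearest genes match a flattened pattern.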

How the data were processed

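Poly(A) RNA libraries were made with a strand-marking kit and sequenced in 1 run, per the labels' protocols. HISAT2 2.2.1 was the aligner, featureCounts 2.0.1 the counter and GRCh38 (hg38) the build, per the submitters' processing notes. Whether counting used strand, and which annotation release it used, is not given in the sources used here. The authors deposited whole-number counts per gene, not normalised. Of 60648 entries, 44 Y copies of pseudoautosomal genes were left out. A gene name table gave 60462 symbols, and GENCODE 29 gave positions and exon lengths for 58336 entries. Total counts ran from 66320519 to 111512357 per library, and 0 columns belonged to other samples. Replicates all differed by more than sampling noise (lowest chi-square per degree of freedom 21.9). The highest values, 2424 to 3245, were those of replicate 1 of young co-culture against replicates 2 to 4 of its group.

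The 9 genes, the gene lists and the tests were chosen with earlier results of these data known. The test was the two-sided quasi-likelihood F-test of edgeR 4.0.16 with TMM factors, on genes that filterByExpr kept at a minimum count of 10. Benjamini-Hochberg adjustment ran over all genes of a fit, with a threshold of 0.05. Replicates 2 to 4 of control, ECM and CM (15 libraries, 18015 genes), of control and co-culture (9 libraries, 17729 genes) and of all groups (21 libraries, 18492 genes, for differences between senescence effects) were fitted. These make 14 comparisons, and those against control share its libraries. Levels are CPM scaled by TMM over all 27 libraries. Of the 52 listed genes, 1 is not reported here. Of the rest, the text names up to 4 per comparison, smallest adjusted p first, and 2 like genes per member among protein-coding genes with at least 5 CPM in a group (pseudocount 0.5 CPM). The tests of control, ECM and CM were checked on simulated counts, with the same spread for every gene and no replicate effect. This does not cover the co-culture fit, genes of differing spread or replicates that deviate together. Same-numbered libraries deviated together in every pair (correlation over 0.1) in young ECM, young CM and young co-culture against control, senescent against young CM, and senescent ECM against senescent CM. Alternatives were all replicates, other scalings, no filter, DESeq2 1.42.0, a replicate block, 1 fit of all groups, and each library left out.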

Additional observations from a re-analysis of the deposited data

Results flagged for a closer look

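In groups of 4 libraries, 1 library stood far from the rest by Dixon's test at the 95% level in 10 of 54 tests, where chance gives about 1 in 20. Of these, 5 were replicate 1 of F3, with 37.6 CPM in senescent ECM, 33.1 in young ECM, 27.8 in senescent CM, 22.6 in young CM and 45.1 in control, the libraries rich in COL1A1. Replicate 1 of young co-culture, whose TMM factor was 0.459, was far above its group for SERPINB2 (46.5 CPM), PLAUR (237 CPM) and PROCR (1664 CPM). Without TMM its PLAUR level, 109 CPM, lay within the 103 to 113 CPM of replicates 2 to 4. SERPINB2 was then at 21.3 against 11.4 to 16.4 CPM, and PROCR at 764 against 338 to 430 CPM. PLAU was flagged in senescent ECM replicate 1 (546 CPM) and in senescent CM replicate 2 (318 CPM).

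Exposure by matrix and by medium differed in the direct test between them. For SERPINB2 the log2 differences were 4.40 (senescent ECM against senescent CM) and 3.15 (young ECM against young CM), for THBD 2.20 and 2.39, and for PLAT 1.25 with young MSCs.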

How the results depend on the processing

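Counts of members called moved as follows. With all replicates the count was 0 in senescent ECM, young ECM and senescent CM against control (1 each in replicates 2 to 4), 0 in senescent (4) and young (6) co-culture against control, 1 in senescent ECM against senescent CM (2) and 0 in young ECM against young CM (3). Over all genes the calls with all replicates were 0, 1, 0, 30, 45, 122 and 12 in the same order. Replicate 1 of 5 groups was rich in stromal transcripts. Endothelial scaling gave 0 in senescent ECM against control and 7, all lower, in senescent co-culture. DESeq2, the replicate block and the fit of all 7 groups each gave 2 in senescent ECM, young ECM and senescent CM against control. Over all genes the fit of all 7 groups called 146, 235 and 206 there, and the other counts are given below. Without the filter 3 passed in each ECM group, 5 in senescent ECM against senescent CM, and 1 in young CM against control, in senescent against young CM, in senescent against young co-culture, in CM minus ECM and in co-culture minus CM. DESeq2 gave 1 in young CM against control, in senescent against young CM and in senescent against young co-culture, where 0 passed with edgeR. Over all genes DESeq2 called 33, 49 and 161 there. With the replicate block 4 passed in senescent ECM against senescent CM. Leave-one-out counts ranged from 1 to 5 in senescent co-culture, 3 to 7 in young co-culture, 1 to 2 in young ECM against control, and 2 to 3 in both matrix against medium comparisons. Causes were not tested.

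Signs turned under endothelial scaling for PLAU (-0.40), PROCR (-0.76) in senescent and PLAU (-0.13), TFPI (-0.33) in young co-culture. With all replicates they turned for F3 (-3.81 in senescent, -4.29 in young co-culture). F3 was at 45.1 CPM in replicate 1 of control, and senescent co-culture has no replicate 1. In senescent co-culture PLAUR ranged from -0.14 to 0.0866 as libraries were left out, the highest without control replicate 2, and TFPI turned to 0.0053 without TMM and to 0.0085 without senescent co-culture replicate 2. Where the numbers do not pair libraries, the block took THBD past the threshold in senescent ECM (adjusted p = 0.0294), PLAU in senescent CM (0.0288) and VWF in senescent co-culture (0.0383). Over all genes the block called 200 against 54 genes in senescent ECM, 321 against 117 in young ECM, 230 against 91 in senescent CM, 6 against 0 in young CM, and 1428 against 882 and 1287 against 604 in senescent and young ECM against CM. Endothelial scaling turned the split of higher and lower genes to 3 and 9, 11 and 58, and 7 and 192 in senescent ECM, young ECM and senescent CM against control (40 and 14, 83 and 34, 55 and 36 with TMM). DESeq2 called 234, 346, 277, 33, 1263 and 1164 genes there. F3 counts of 18 to 105 per library in replicates 2 to 4 limit its precision.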
